A study of Saccharomyces cerevisiae with 6 samples.

Results

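The transcripts of 32 genes for amino acid and peptide transport were compared between 2 strains of the budding yeast Saccharomyces cerevisiae. The genes were chosen by name, with earlier results of these data known. Each of the 32 names matched 1 of the 6416 rows of the deposited transcript table. They comprise 7 plasma membrane permeases of broad substrate range and 11 plasma membrane permeases for single or closely related substrates. The rest are 7 members of the AVT family (here the vacuolar class), the peptide and allantoate transporters PTR2 and DAL5, and 5 others. All 32 passed the filter on low values. The samples were 6 RNA preparations from BY4741, a laboratory strain of mating type a that carries deletions at HIS3, LEU2, MET17 and URA3. In 3 samples the cells expressed NdeltaCit1-DS/AA (DS/AA, replicates 1 to 3), and in the other 3 NdeltaCit1-DS/AA-H/G (DS/AA-H/G, replicates 4 to 6). Both are forms of the citrate synthase Cit1 without its mitochondrial presequence, and galactose was the only carbon source of the synthetic complete medium in which both strains grew. The labels do not say what DS/AA and H/G stand for, which promoter drives the forms or whether each replicate had its own culture. The p-values therefore reflect only how far these samples spread, which may be technical variation.

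Yeast takes up amino acids through a family of proton-driven permeases with overlapping ranges. Extracellular amino acids are sensed by the SPS complex of Ssy1, Ptr3 and Ssy5, which cleaves the transcription factors Stp1 and Stp2 so that they induce permease genes such as AGP1, BAP2, GNP1 and PTR2. Permeases for poor nitrogen sources, such as GAP1, PUT4 and DAL5, are repressed on good nitrogen sources and activated by GATA factors, and some methionine-related permeases belong to the sulfur regulon of Met4 with Cbf1, Met31 and Met32. Synthetic complete medium supplies amino acids, and BY4741 itself needs histidine, leucine, methionine and uracil from it. Several AVT proteins move amino acids across the membrane of the vacuole, the main intracellular amino acid store.

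Values are estimated read counts that the authors scaled by 1 factor per library, called scaled counts here, and libraries held 30277566 to 32702564 estimated reads. The transcript counted as CIT1 ranged over 505016 to 549422 scaled counts for DS/AA and over 1193542 to 1217462 for DS/AA-H/G, so the expressed form and the amount of its transcript differ together and cannot be told apart. Among 4 a-type genes STE2 and BAR1 fell in DS/AA and MFA1 and MFA2 lay under 20 scaled counts in every library, and the list summed to 16351 to 17679 for DS/AA against 25806 to 27728 for DS/AA-H/G. The 3 alpha-type genes (STE3 rose) summed to 508 to 603 and 431 to 448, with MF(ALPHA)2 at 0 in 3 libraries, and 5 sporulation genes (3 rose) to 1228 to 1268 and 968 to 1021. BY4741 carries deletions at URA3 and HIS3, and how much of each gene they remove was not examined here. Transcripts counted as URA3 were found at 16114 ± 871 against 40821 ± 234 scaled counts (SD, n = 3 each). Those counted as HIS3 were at 1860 ± 162 against 1155 ± 97.2. LEU2 and MET17 were not analysed here. The part of these differences in the results below was not tested. Each value is an average over a whole culture, so a change in every cell and a change in a fraction of the cells cannot be told apart.

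Upstream sequences are shown for 6 members: the methionine permease gene MUP3, which had the largest rise, AGP3, MMP1 and MUP1 from the same sulfur-related group, and GAP1 and AGP1. SAM3 of that group, which fell, and PTR2, which had the largest fall, are not shown. All are from the RefSeq R64 sequence, 5′ to 3′ on the gene's strand. Capitals mark, on either strand, TGTGGC (the core bound by Met31 and Met32) in the first 4, TGACTC (a core bound by Gcn4, the activator of amino acid synthesis genes) in MUP3, MUP1 and AGP1, and GATAAG (bound by GATA factors) in MUP3, GAP1 and AGP1. The MUP3, AGP3, MMP1 and MUP1 stretches are chrVIII:25991-26290, chrVI:16724-17023, chrXII:17706-18005 and chrVII:599117-599416, all on the plus strand. The GAP1 stretch is chrXI:514533-514832 on the plus strand and the AGP1 stretch chrIII:78160-78369 on the minus strand. Only MUP3 and MMP1 are shown from 250 bases before to 50 after the start. The AGP3, MUP1, GAP1 and AGP1 stretches open 280, 300, 530 and 450 bases before it. These were set gene by gene and take in matches outside the shorter windows counted below.
MUP3: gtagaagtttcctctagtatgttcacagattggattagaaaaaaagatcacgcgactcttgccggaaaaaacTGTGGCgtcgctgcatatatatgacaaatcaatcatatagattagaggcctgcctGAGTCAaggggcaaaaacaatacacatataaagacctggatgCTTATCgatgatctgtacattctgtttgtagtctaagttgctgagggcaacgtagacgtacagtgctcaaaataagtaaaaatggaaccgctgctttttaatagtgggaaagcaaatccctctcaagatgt
AGP3: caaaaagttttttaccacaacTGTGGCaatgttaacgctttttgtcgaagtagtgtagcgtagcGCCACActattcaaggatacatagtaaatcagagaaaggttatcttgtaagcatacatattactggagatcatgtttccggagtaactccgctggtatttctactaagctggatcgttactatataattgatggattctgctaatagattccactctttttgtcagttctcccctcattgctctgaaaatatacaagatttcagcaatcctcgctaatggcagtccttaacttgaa
MMP1: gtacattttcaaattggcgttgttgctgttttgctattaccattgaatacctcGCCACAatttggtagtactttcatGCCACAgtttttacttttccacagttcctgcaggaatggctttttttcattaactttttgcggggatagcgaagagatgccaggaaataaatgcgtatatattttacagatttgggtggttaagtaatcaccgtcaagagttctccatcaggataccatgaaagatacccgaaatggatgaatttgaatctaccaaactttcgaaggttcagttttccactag
MUP1: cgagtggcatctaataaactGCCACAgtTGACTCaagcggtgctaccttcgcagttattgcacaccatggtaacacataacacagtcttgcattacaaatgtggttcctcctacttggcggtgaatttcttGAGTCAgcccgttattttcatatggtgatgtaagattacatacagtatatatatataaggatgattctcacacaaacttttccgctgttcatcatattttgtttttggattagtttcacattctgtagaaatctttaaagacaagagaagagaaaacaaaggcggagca
GAP1: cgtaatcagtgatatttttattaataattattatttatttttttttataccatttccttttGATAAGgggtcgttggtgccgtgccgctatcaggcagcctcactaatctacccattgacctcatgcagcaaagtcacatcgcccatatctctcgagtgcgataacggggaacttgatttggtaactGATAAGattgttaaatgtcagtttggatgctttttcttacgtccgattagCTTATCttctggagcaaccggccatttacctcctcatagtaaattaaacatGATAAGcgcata
AGP1: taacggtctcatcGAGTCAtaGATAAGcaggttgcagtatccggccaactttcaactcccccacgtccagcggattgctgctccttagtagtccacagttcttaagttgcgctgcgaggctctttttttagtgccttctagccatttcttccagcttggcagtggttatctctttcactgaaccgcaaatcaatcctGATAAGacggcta

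MUP3 holds TGTGGC with its first base at -178 from the start codon, TGACTC at -123 and GATAAG at -81 within its stretch. Farther upstream it also holds TGTGGC at -413, CACGTG at -462 and GATAAG at -509. AGP3 holds TGTGGC at -259 and -216 and MMP1 at -197 and -173. MUP1 holds TGTGGC at -280 and TGACTC at -272 and -169 within its stretch. GAP1 holds GATAAG at -469, -343, -293 and -242 within its stretch, and AGP1 holds it at -429 and -253, with TGACTC at -437. In windows from 250 bases before to 50 bases after the start, TGTGGC was found in 4 of 32 members (12.5%) and in 7.96% of 6335 protein-coding rows, TGACTC in 6 (18.8%) and 8.18%, and GATAAG in 10 (31.2%) and 14.5%. In these windows AGP1 held neither TGACTC nor GATAAG, and GAP1 held GATAAG at -242 only. CACGTG, bound by Cbf1, was in 1 member (3.12%), AVT7, and in 2.98% of the rows. CGGCTC, a core for Stp1 and Stp2, was in 0 members and 3.46% of the rows, and its paired form, CGGC and GCCG with 6 bases between them, in 0 and 0.0631%. In windows of 600 bases before the start, chosen after the first were seen, 17 members held GATAAG (53.1%, against 26.8% of rows), 12 TGACTC (37.5% against 15.7%), 8 TGTGGC (25.0% against 17.5%), 3 CACGTG (9.38% against 7.07%) and 7 CGGCTC (21.9% against 8.18%), while the paired form was in 0 (against 0.268%). Members that fell or were not called held matches too. In the shorter windows GATAAG was in SSY1, TPO5, AVT5, AVT6 and AVT7, not called. It was also in ALP1, GAP1, MUP3 and DAL5, which rose, and AVT1, which fell. TGACTC was there in HIP1, MUP1 and BIO5, not called, in BAP2 and MUP3, which rose, and in AVT1. In the 600-base windows SAM3, which fell, held TGTGGC at -363 and GATAAG at -598, and PTR2, which fell, held GATAAG at -380. PUT4, which rose, held none of the motifs there. CGGCTC was held there by BAP2, BAP3, MUP1, SAM3, BIO5, TPO5 and AVT4. Of these, only BAP2 and BAP3 are among the SPS targets grouped below. The motifs can overlap one another, and a match is a description of letters only.

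Of the 32 transporter transcripts, 9 were higher and 9 lower in DS/AA than in DS/AA-H/G, and 14 did not pass the test, which was limma's on log2(value + 1) with p adjusted by Benjamini-Hochberg over 6197 genes and called under 0.05. In all, 41.8% of tested genes were called (22.1% higher and 19.7% lower), and of the 5400 with a mean of at least 100 scaled counts, a level that 31 members reached, 46.1% were called; members were called at 56.2%. The split of all calls moved with the scaling: 52.8% were higher as deposited, 36.8% after quantile normalization, 71.1% with equal column totals and 60.9% with equal totals without CIT1, while the members' split was 9 and 9, 9 and 9, 11 and 6, and 11 and 9. Every change is given as DS/AA less DS/AA-H/G in log2(value + 1), a scale on which changes of low genes come out too small. The members' median change was -0.03, against 0.01 over all tested genes, and their median absolute change 0.20, against 0.14. An absolute change of at least 0.5 was reached by 8 members (25.0%), against 13.3% of tested genes. Libraries of the strains did not overlap for 20 members, where 52.7% of tested genes showed this. In the authors' deposited table, where q was under 0.05 for 41.5% of the 6416 rows, the same 18 members had q under 0.05, and 0 members were called in one source only.

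**Figure D1:**
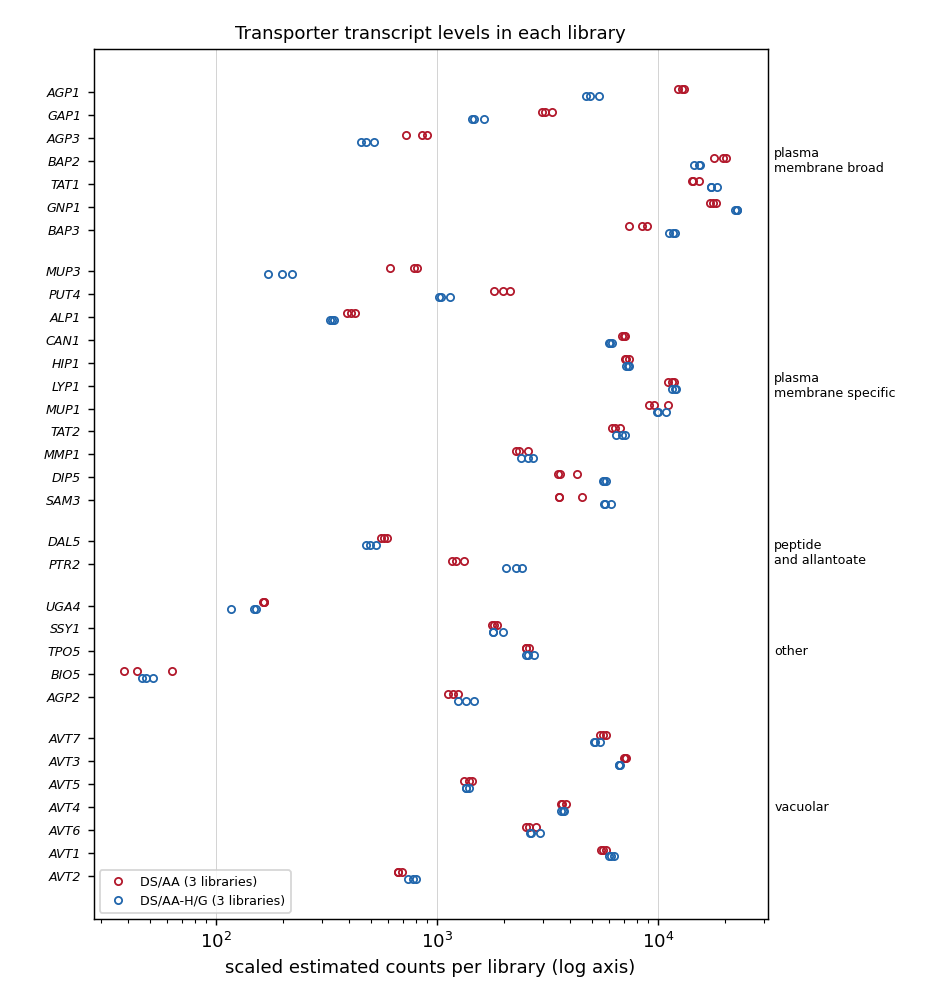
Scaled estimated counts of the 32 transporter transcripts in each library (log axis), with 3 DS/AA libraries in red and 3 DS/AA-H/G libraries in blue, grouped by class. The strains separate for all 7 broad plasma membrane permeases, as they did for 52.7% of all tested genes, and most vacuolar members lie close together.

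**Figure D2:**
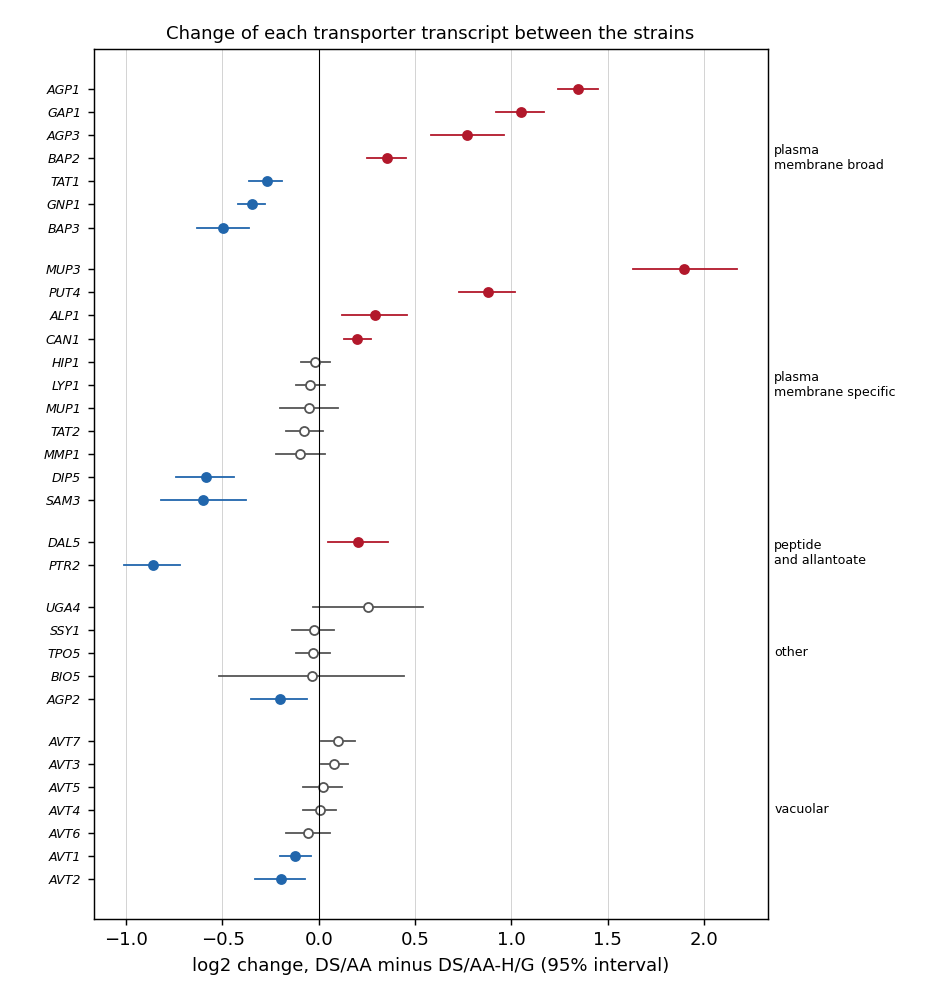
Change of each transcript (log2, DS/AA less DS/AA-H/G) with limma's 95% interval; filled points are called (red higher, blue lower) and open points are not. MUP3, at 1.90, lies farthest to the right and PTR2, at -0.86, farthest to the left, while the vacuolar members lie between -0.20 and 0.10.

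All 7 broad permease transcripts of the plasma membrane were called, 4 higher and 3 lower, and no alternative run here ended any of these calls. The share over all tested genes was 41.8%. The broad amino acid permease gene AGP1 (YCL025C, chromosome III, 76018 to 77919, minus strand, R64) stood at 12808, 13067 and 12308 scaled counts in DS/AA replicates 1 to 3 and at 4919, 4724 and 5403 in DS/AA-H/G replicates 4 to 6. Every DS/AA library lay far above every DS/AA-H/G library, a 2.54-fold difference of means and a log2 change of 1.35 ± 0.05 (SE, n = 3 each; limma adjusted p = 1.66e-09). GAP1, the general amino acid permease (YKR039W, chromosome XI, 515063 to 516871), stood at 3085, 3297 and 2961 against 1438, 1459 and 1626. The groups did not overlap, and the log2 change was 1.05 ± 0.06 (limma adjusted p = 4.65e-08), or 2.07-fold. AGP3, a low-affinity permease gene (YFL055W, chromosome VI, 17004 to 18680), was lower in level, at 899, 848 and 722 against 516, 452 and 476. It rose by 0.77 ± 0.09, with DS/AA replicate 3 nearest to the other strain. BAP2, a permease mainly for branched-chain amino acids (YBR068C, chromosome II, 373861 to 375690), stood at 19270 ± 1199 against 15086 ± 496 (SD, n = 3 each) and rose by 0.35 on the log2 scale.

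The remaining 3 broad permeases fell. BAP3, the branched-chain permease gene related to BAP2 (YDR046C, chromosome IV, 548762 to 550576), stood at 8907, 8422 and 7393 in DS/AA and 11952, 11129 and 11698 in DS/AA-H/G. All 3 DS/AA libraries lay below, with a log2 change of -0.50 ± 0.06 (limma adjusted p = 7.76e-05). GNP1, which encodes a glutamine permease with a wider range (YDR508C, chromosome IV, 1466453 to 1468444), stood at 17662 ± 507 against 22469 ± 255, a log2 change of -0.35 ± 0.03 (limma adjusted p = 4.11e-06). GNP1 overlaps YDR509W on the opposite strand over 219 nt, a row that reached at most 11.1 scaled counts. TAT1, a permease gene for tyrosine and branched-chain amino acids (YBR069C, chromosome II, 376574 to 378433), stood at 14597 ± 572 against 17609 ± 638 and changed by -0.27.

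The summed level of the 7 broad transcripts changed little while its makeup shifted. Per kilobase of coding length, which allows levels of different genes to be added, the sum was 42285, 41060 and 38720 scaled counts in DS/AA and 39951, 38036 and 39419 in DS/AA-H/G, and the groups overlapped. AGP1 took 15.9%, 16.7% and 16.7% of that sum in DS/AA and 6.47%, 6.53% and 7.21% in DS/AA-H/G. GAP1 took 4.03% to 4.44% against 1.99% to 2.28%. GNP1 took 21.5% to 22.3% against 28.5% to 29.3%, TAT1 18.7% to 19.8% against 23.5% to 24.7%, and BAP3 10.5% to 11.6% against 16.1% to 16.5%. These shares come from within each library and do not depend on a scaling by 1 factor per library; none of them overlapped between the strains. The 18 plasma membrane transcripts of both classes summed to 71514 ± 2938 and 71490 ± 1560 scaled counts per kilobase (SD, n = 3 each), and the 7 vacuolar ones to 15469 ± 318 and 15433 ± 367. The ratio of the plasma membrane to the vacuolar sum was 4.51 to 4.79 for DS/AA against 4.53 to 4.78 for DS/AA-H/G. The ratio of the broad to the specific sum was 1.31 to 1.33 for DS/AA against 1.20 to 1.22 for DS/AA-H/G, with no overlap. Neither sum alone separated the strains, and 3 of the 7 broad transcripts fell. AGP1, with its larger share in DS/AA, weighs on this ratio, which was not computed without it. The ratio therefore does not describe a rise of the broad class as a whole.

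**Figure D3:**
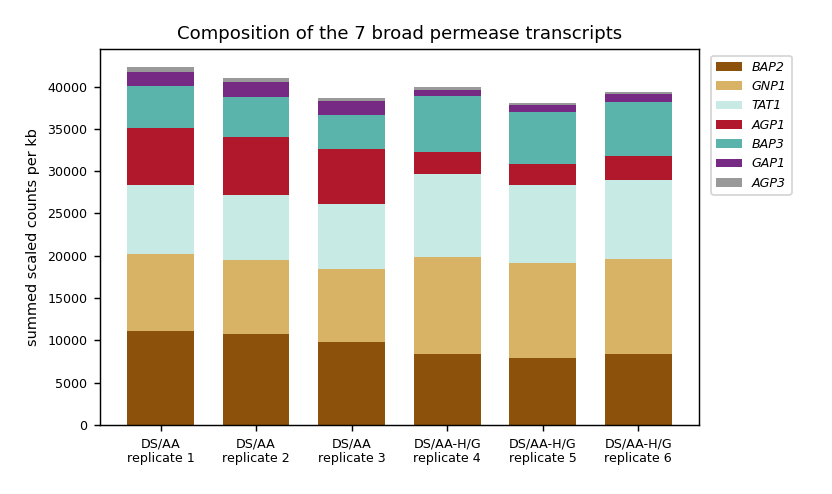
Stacked bars of scaled counts per kilobase of the 7 broad plasma membrane permease transcripts, 1 bar per library. The bars reach similar heights, between 38036 and 42285, while the AGP1 layer takes 15.9% to 16.7% of the DS/AA bars and 6.47% to 7.21% of the DS/AA-H/G bars.

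Of the 11 substrate-specific plasma membrane permeases 4 rose, 2 fell and 5 did not pass, with a median log2 change of -0.05. The median of the broad class, 0.35, is the value of BAP2 alone, and changes of that class ran from -0.50 to 1.35. Changes of the specific class ran from -0.60 to 1.90. The share called was 54.5%, against 41.8% of all tested genes and 46.1% of those with a mean of at least 100 scaled counts. MUP3, which encodes a low-affinity methionine permease (YHL036W, chromosome VIII, 26241 to 27881), stood at 813, 787 and 613 scaled counts in DS/AA and 220, 199 and 171 in DS/AA-H/G. The DS/AA libraries were all above, at 3.75-fold on average and a log2 change of 1.90 ± 0.12 (limma adjusted p = 2.87e-07), which ranked 61 from the top of the 6197 tested genes. MUP1, the high-affinity methionine permease gene, stood at 11004, 9587 and 9066 against 10810, 9897 and 9948. The groups overlapped, and the log2 change of -0.05 (95% interval -0.20 to 0.10) did not pass (limma adjusted p = 0.581), although it did without DS/AA replicate 1, at -0.13 (limma adjusted p = 0.0375). SAM3, the permease gene for S-adenosylmethionine, stood at 4534, 3556 and 3555 against 6130, 5746 and 5664 and fell, by 0.60 ± 0.09 (SE), with DS/AA replicate 1 nearest to the other strain (limma adjusted p = 0.00146). MMP1, for S-methylmethionine, stood at 2389 ± 152 against 2554 ± 162 and did not pass at -0.10 (95% interval -0.22 to 0.03), but did without DS/AA replicate 1, at -0.15 (limma adjusted p = 0.0479).

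Permeases for other single or closely related substrates include PUT4, the proline permease gene (YOR348C, chromosome XV, 986899 to 988782). PUT4 stood at 1975, 2127 and 1799 scaled counts against 1143, 1019 and 1044. It was higher in every DS/AA library and rose by 0.88 ± 0.07 (limma adjusted p = 8.12e-07). DIP5, the permease gene for glutamate and aspartate (YPL265W, chromosome XVI, 41043 to 42869), went the other way, with 3523, 4301 and 3578 against 5602, 5663 and 5791. Its DS/AA libraries were all lower, at -0.59 ± 0.07 on the log2 scale (limma adjusted p = 5.51e-05).

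The 3 related permeases for basic amino acids differed in their calls. CAN1, the arginine permease gene, stood at 7045, 6976 and 6825 against 6028, 5966 and 6147, with no overlap and a small rise of 0.20 ± 0.03 (limma adjusted p = 5.17e-04). ALP1, a further basic amino acid permease gene, was far less abundant, at 392, 407 and 426 against 341, 332 and 326. It rose by 0.29 ± 0.08, but was at 0.01 after quantile normalization (limma adjusted p = 0.943). LYP1, the lysine permease gene, stood at 11449 ± 325 against 11822 ± 249 and did not pass (log2 change -0.05, 95% interval -0.12 to 0.03). HIP1, for histidine, was at 7173 ± 146 against 7262 ± 99.8, and TAT2, for tryptophan and tyrosine, at 6418 ± 253 against 6776 ± 317. Neither passed, with changes of -0.02 and -0.08; HIP1 overlaps YGR190C on the opposite strand over 242 nt, a row with at most 4.07 scaled counts.

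PTR2, the main transporter gene for di- and tripeptides (YKR093W, chromosome XI, 615730 to 617535), had the largest fall of the 32. It stood at 1214, 1315 and 1163 scaled counts in DS/AA and 2034, 2280 and 2409 in DS/AA-H/G. All DS/AA libraries lay below, by 1.82-fold on average, and the log2 change was -0.86 ± 0.07 (limma adjusted p = 1.15e-06), ranked 71 from the bottom of all tested genes. DAL5, the allantoate permease gene, which can also carry dipeptides, stood at 553, 573 and 591 against 495, 525 and 474. It rose by 0.20 ± 0.07 without overlap (limma adjusted p = 0.0380), but was not called after quantile normalization, at 0.01 (limma adjusted p = 0.954), or without DS/AA replicate 2 or 3 or DS/AA-H/G replicate 4 or 6 (limma adjusted p = 0.0822, 0.108, 0.0823 and 0.125).

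Of the 5 other members AGP2 fell and 4 did not pass. SSY1, a permease relative that acts as the amino acid sensor, stood at 1864, 1808 and 1771 against 1781, 1784 and 1984, with overlap and a log2 change of -0.03 (95% interval -0.14 to 0.08). AGP2, a permease relative tied to the uptake of carnitine and polyamines, stood at 1114, 1241 and 1175 against 1241, 1472 and 1350. It changed by -0.20 ± 0.07 (limma adjusted p = 0.0293), with DS/AA replicate 2 level with DS/AA-H/G replicate 4. That call was lost with equal column totals and in limma without a trend (limma adjusted p = 0.0937 and 0.0951). It was also lost without DS/AA replicate 1 or 3 or DS/AA-H/G replicate 5 or 6 (limma adjusted p = 0.0828, 0.0643, 0.149 and 0.0677). UGA4, the permease gene for gamma-aminobutyrate, was at 164 ± 2.07 against 138 ± 19.2, without overlap, and did not pass (log2 change 0.25, 95% interval -0.03 to 0.54). TPO5, a polyamine transporter gene, was at 2548 ± 47.3 against 2601 ± 110. BIO5, for uptake of a biotin precursor, had the lowest level of all, at 48.3 ± 13.0 against 48.6 ± 2.97, and its interval was the widest, from -0.52 to 0.44.

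The 7 vacuolar transcripts changed little: 2 fell, 0 rose and 5 did not pass, with a median log2 change of 0.01 and a median absolute change of 0.08, against 0.14 over all tested genes. The share called was 28.6%, against 41.8% of all tested genes. AVT1, which takes large neutral amino acids into the vacuole, stood at 5622, 5772 and 5507 scaled counts against 5997, 6111 and 6314. The groups did not overlap, and the change was -0.12 ± 0.04 (limma adjusted p = 0.0167). AVT2, a less studied relative, stood at 665, 664 and 692 against 737, 777 and 804, also without overlap, and changed by -0.20 ± 0.06 (limma adjusted p = 0.0207). Both calls were lost with equal column totals (limma adjusted p = 0.143 and 0.0757) and without DS/AA-H/G replicate 5 (0.0583 and 0.0737) or replicate 6 (0.0688 and 0.0800). AVT1 was also lost without DS/AA replicate 3 (limma adjusted p = 0.0584), and AVT2 without DS/AA replicate 2 (0.0569).

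AVT3 and AVT4 export neutral amino acids from the vacuole and AVT6 acidic ones. AVT3 stood at 6963, 7122 and 7074 against 6710, 6660 and 6638, with no overlap, and missed the threshold at 0.08 ± 0.03 (limma adjusted p = 0.0650). AVT7, which is also linked to export, stood at 5629, 5778 and 5433 against 5160, 5102 and 5456, with overlap, at 0.10 ± 0.04 (limma adjusted p = 0.0643). Both passed under quantile normalization (limma adjusted p = 0.0141 and 0.0444) and under both scalings to equal totals, and AVT7 also without DS/AA replicate 3 or DS/AA-H/G replicate 6 (0.0452 and 0.0350). AVT3 overlaps YKL147C on the opposite strand over 386 nt, a row with at most 6.29 scaled counts. AVT4, AVT5 and AVT6 overlapped between the strains, at log2 changes of 0.01, 0.02 and -0.05 with intervals within -0.17 and 0.12.

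Grouped by known control, 8 targets of the SPS pathway had 2 members higher (AGP1 and BAP2), 5 lower (GNP1, BAP3, TAT1, DIP5 and PTR2) and TAT2 not called, with a median log2 change of -0.31. The 4 targets of nitrogen catabolite repression had GAP1, PUT4 and DAL5 higher, UGA4 not called and a median of 0.57. Of 5 permeases of the sulfur regulon, MUP3 and AGP3 rose, SAM3 fell and MUP1 and MMP1 did not pass, with a median of -0.05. The shares called were 87.5% (SPS), 75.0% (nitrogen) and 60.0% (sulfur). Among all tested genes 41.8% were called, and 46.1% of those with a mean of at least 100 scaled counts. With so few members per group, 1 call moves these shares far, and the groups were chosen with earlier results of these data known. AGP3, MMP1, SAM3 and MUP3 lie 17003, 17955, 22937 and 26240 bases from the nearest chromosome end, and MUP1 lies 489799 bases from it. Members outside the sulfur group also lie near an end, with DAL5 at 24454, AVT2 at 29796 and CAN1 at 31693 bases.

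Related and adjacent members were compared by their ratio within each library, which does not depend on a scaling by 1 factor per library. Quantile normalization can change such ratios: it moved CAN1 from 0.20 to 0.23 and ALP1 from 0.29 to 0.01 on the log2 scale. AGP1 and GNP1, which the deposited gene descriptions name as paralogs, share 73.0% of bases over 1539 aligned nt. Their ratio per kilobase was 0.737, 0.777 and 0.750 in DS/AA and 0.227, 0.223 and 0.251 in DS/AA-H/G. For the paralogs BAP2 and BAP3 (71.5% over 1513 nt) it was 2.26, 2.31 and 2.41 against 1.28, 1.29 and 1.30. The strains did not overlap in either ratio. The paralogs CAN1 and ALP1 (67.7% over 1451 nt) kept overlapping ratios, 15.6 to 17.5 against 17.2 to 18.3, as did AVT5 and AVT6, 0.487 to 0.539 against 0.465 to 0.499. A further 3 comparisons were chosen after values were seen. MUP3 over MUP1 was 0.0711 to 0.0863 against 0.0181 to 0.0214, and SAM3 over MMP1 1.51 to 1.76 against 2.19 to 2.39. BAP2 and TAT1 are neighbours 883 nt apart on chromosome II, and their ratio was 1.28 to 1.40 against 0.855 to 0.902. Other adjacent members were CAN1, which rose, and AVT2, which fell, 454 nt apart on chromosome V, and LYP1, not called, and ALP1, which rose, 888 nt apart on chromosome XIV. No member shared 100 nt or more at 95% identity with any other row.

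**Figure D4:**
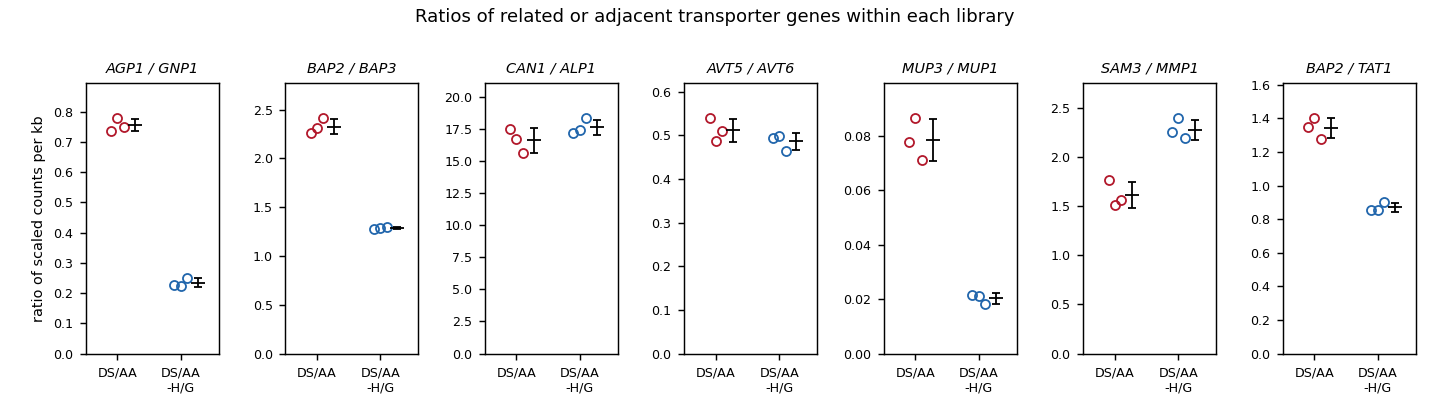
Ratio of scaled counts per kilobase within each library for 7 combinations of related or adjacent members; open circles are libraries and black marks the mean with SD (n = 3). The strains separate for AGP1 over GNP1, BAP2 over BAP3, MUP3 over MUP1, SAM3 over MMP1 and BAP2 over TAT1, and overlap for CAN1 over ALP1 and AVT5 over AVT6.

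In order of level per kilobase, GNP1 (11280), TAT1 (9467), BAP2 (8244), LYP1 (6439), BAP3 (6387) and MUP1 (5924) led in DS/AA-H/G. In DS/AA the order began with BAP2 (10530), GNP1 (8866), TAT1 (7848), AGP1 (6692) and LYP1 (6236). AGP1 stood 15th of the 32 in DS/AA-H/G and 4th in DS/AA. MUP3 stood 30th and 28th despite its large change, with 120 and 450 scaled counts per kilobase. BIO5 and UGA4 were lowest in both strains.

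Genes that act on these transporters were counted from lists, which were chosen with earlier results of these data known. Of 12 genes of the SPS sensor pathway, 3 rose, 1 fell and 8 did not pass, so 33.3% were called, against 41.8% of all tested genes, with changes of -0.09 to 0.31 on the log2 scale. The number called was 2 after quantile normalization and in limma without a trend. It was 2 without DS/AA replicate 1 or 2 or DS/AA-H/G replicate 4 or 5, and 3 without DS/AA replicate 3 or DS/AA-H/G replicate 6. STP2, which encodes an effector of the pathway, was at 4002 ± 114 against 3226 ± 190 scaled counts (SD, n = 3 each) and rose by 0.31 (limma adjusted p = 1.99e-04). The scaffold gene PTR3 rose by 0.15 and STP1 by 0.12, and the casein kinase gene YCK2 changed by -0.09. Of 14 genes for exit of permeases from the endoplasmic reticulum and for their turnover, 5 rose, 1 fell and 8 did not pass, a called share of 42.9% that is close to the 41.8% of all tested genes. ECM21, an arrestin adaptor gene for the ubiquitin ligase Rsp5, stood at 3470 ± 89.0 against 2216 ± 156 and rose by 0.65 (limma adjusted p = 1.11e-06). A further arrestin gene, ROG3, rose by 0.46. NPR1, a kinase that stabilises permeases, rose by 0.18, and SHR3, the chaperone that lets permeases leave the endoplasmic reticulum, fell by 0.20, from 4527 ± 50.1 to 3936 ± 99.7. RSP5 itself did not pass (-0.05).

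Of 7 genes of peptide uptake and its control, which include PTR2 and DAL5, 3 rose, PTR2 fell and 3 did not pass (57.1% called, against 41.8%), and 2 were called after quantile normalization. CUP9, known as a repressor of PTR2, stood at 2252 ± 173 against 1666 ± 55.2 and rose by 0.43 (limma adjusted p = 6.71e-05). UBR1, the ubiquitin ligase that degrades Cup9, did not pass (0.04). OPT1, an oligopeptide and glutathione transporter gene, rose by 0.63 from a low level, at 104 ± 9.62 against 67.1 ± 7.23. Of 11 further vacuolar transporter genes 10 were analysed here, with 3 higher, 3 lower and 4 not called (60.0% called, against 41.8%). Without DS/AA replicate 1 or DS/AA-H/G replicate 5 the number called was 4. RTC2, which encodes a vacuolar transporter for basic amino acids, stood at 593 ± 119 against 185 ± 26.7 and rose by 1.66 (limma adjusted p = 7.03e-06), and ATG22 rose by 0.40. VBA4 changed by -0.21 and YPQ2 by -0.19. Of 8 genes of sulfur uptake and use outside the 32, 6 rose, 0 fell and 2 did not pass (75.0% called, against 41.8%), with a median of 1.20. This list was chosen with earlier results of these data known and includes SUL1, which ranked 1 from the top of all tested genes. Its share and median are therefore descriptions and no test of the group. The sulfate permease genes SUL1 and SUL2 rose by 7.52 and 2.58, STR3 by 3.88, and SEO1, a relative of DAL5, by 1.83, from 210 ± 22.4 to 759 ± 180 scaled counts. MHT1 and SAM4, the enzymes that use S-methylmethionine and S-adenosylmethionine beside MMP1 and SAM3, were the 2 that did not pass, at 0.05 and 0.04.

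**Figure D5:**
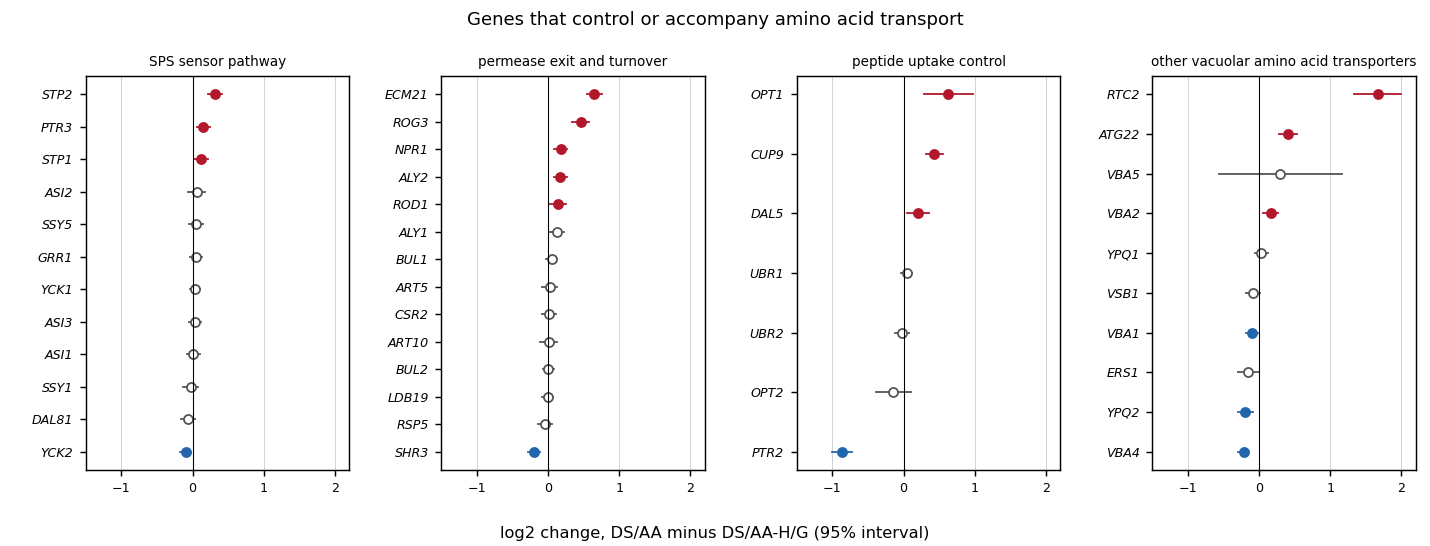
Log2 change with limma's 95% interval for genes of 4 lists around amino acid transport; filled points are called (red higher, blue lower). RTC2, at 1.66, and PTR2, at -0.86, lie farthest from 0, and the SPS sensor genes lie between -0.09 and 0.31.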

How the data were processed

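RNA of 6 yeast samples was sequenced. Libraries came from a directional (strand-marking) kit, per the labels' protocols. The submitters' processing notes name bcl2fastq 2, cutadapt 1.18, Salmon 1.2.1, R 3.5.1 and build R64; their settings are not stated. The authors deposited, for 6416 rows, a signal per library that its values show to be estimated counts divided by 1 factor per library: 93.6% to 96.4% of values under 10 steps are whole multiples of a step of 0.940 to 1.05, within 0.01, but 36.1% to 44.4% of all values are, so no count model was applied. They also deposited a log2 ratio, a p-value and q-value from a test that no source used here names, a score (rank) and a mark of rows with q under 0.05.

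Rows with at least 1 in at least 3 samples (6197) entered limma 3.58.1 (R 4.3.3, trend, robust) after a log2 transform with a pseudocount of 1. The limma fit, and no other step, was checked on simulated data. All 32 members had the start and end of the RefSeq R64 table, from whose genome promoters were read. Similarity was searched with BLAST+ 2.17.0. Every library's value is given for members called with an absolute change of at least 0.5, for GAP1, CAN1, MUP1, PTR2 and SSY1, for BAP3, which lay just under 0.5, and for members whose call changed under another scaling; of each control list, up to 4 genes with the smallest p are named, and UBR1, RSP5, MHT1 and SAM4 were named after their values were seen. The members and lists were chosen with earlier results of these data known. Alternatives were other pseudocounts, filters, scalings, limma without a trend, the authors' q and leaving out each replicate.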

Additional observations from a re-analysis of the deposited data

How the results depend on the processing

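Of the 18 called members, 13 were called under all 15 alternatives; ALP1, DAL5, AGP2, AVT1 and AVT2 were not, and MUP1, MMP1, AVT3 and AVT7 passed in some. No called change reversed its sign. Of 480 member values, 450 kept their side of the threshold, and 21 sign changes were of values not called in either fit. No paired analysis was possible because the strains share no replicate number. The cause of the shifts below was not tested.

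Members higher numbered 8 to 9 and members lower 6 to 10 when 1 replicate was left out, and all called genes 2009 to 2576 (1106 to 1317 higher, 903 to 1259 lower). With equal column totals 747 genes were lower in place of 1222, no member of the other class was called, and medians moved to 0.03 for all members, 0.01 for the specific class, 0.06 for the vacuolar class, 0.03 for the other class and -0.25 for SPS targets. With quantile normalization 4 vacuolar members were called, 1 of PTR2 and DAL5, 2 of the SPS sensor pathway and 2 of peptide uptake control, and medians were -0.01 (specific), -0.06 (vacuolar), -0.46 (PTR2 and DAL5), -0.08 (other), -0.25 (SPS targets) and 0.41 (nitrogen catabolite repression). With equal totals without CIT1, 4 vacuolar members were called. Limma without a trend called 0 of the other class and 2 of the SPS sensor pathway.

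With 1 replicate left out, counts called ranged from 7 to 7 of the broad class, 6 to 8 of the specific, 0 to 2 of the vacuolar, 1 to 2 of PTR2 and DAL5, 0 to 1 of the other class, 7 to 7 of SPS targets, 2 to 3 of nitrogen catabolite repression targets, 3 to 5 of sulfur regulon permeases (5 without DS/AA replicate 1), 2 to 3 of the SPS sensor pathway, 5 to 6 of exit and turnover, 3 to 4 of peptide uptake control, 4 to 7 of the further vacuolar genes and 6 to 6 of sulfur uptake. Medians ranged from -0.04 to 0.00 for all members, 0.32 to 0.40 (broad), -0.06 to -0.01 (specific), -0.02 to 0.02 (vacuolar), -0.37 to -0.30 (PTR2 and DAL5), -0.05 to 0.01 (other), -0.34 to -0.29 (SPS), 0.51 to 0.62 (nitrogen) and -0.13 to 0.01 (sulfur). Depth limits BIO5 most, at 38.3 to 63.0 scaled counts a library.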
